A study of Homo sapiens with 8 samples.

Results

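The replication-dependent histone genes here are 60 of the 13119 genes that the array annotation names, read through 61 of its 22277 probe sets. A probe set was taken where its gene symbol, in current nomenclature, begins with H2AC, H2BC, H3C or H4C and a number, or is H1-1 to H1-5. Of the 61, 41 name 1 gene and 20 name several of these genes. By class, 5 probe sets name H1 genes, 13 H2A, 18 H2B, 9 H3 and 14 H4, and 2 name H2A and H3 genes together. Histone genes of a class are near copies in their coding sequence. By the array's naming, 14 of the probe sets end in _x_at, which marks probes that may match other sequences, and 7 in _s_at, which marks probes shared by related transcripts. Probe sets of a class can therefore take up each other's transcripts and are not independent readings. H2BC12L, a histone-like gene named after H2BC12, is kept because its symbol meets the rule.

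The 8 Affymetrix arrays hold RNA of OVCAR-3, CAOV-3, DOV-13 and SKOV-3, which are established lines from human ovarian cancer. Each line gave 1 array from cells treated with pI:pC (polyriboinosinic:polyribocytidylic acid, a synthetic double-stranded RNA) and 1 from untreated cells, 4 arrays per group, all in the same serum-containing medium. Dose and exposure time per array are not in the labels, nor is it said whether an array stands for a single culture, so p-values measure only the spread of these arrays. Array medians lay between 6.19 and 6.30 on the log2 scale on which the authors deposited the values, and having so few arrays limits the precision of every comparison.

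Replication-dependent histone genes supply the core histones H2A, H2B, H3 and H4 and the linker histone H1 that package new DNA in S phase. They lack introns, sit in clusters, and most of their transcripts end in a stem-loop in place of a poly(A) tail, which the stem-loop binding protein SLBP recognises. Some of them also give polyadenylated transcripts, in particular in cells that have left the cycle. Standard Affymetrix labelling starts from an oligo(dT) primer, so a level here reads polyadenylated histone transcripts far better than stem-loop transcripts. In RNA from whole cultures, fewer cells in S phase and less histone RNA per cell cannot be told apart.

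Promoters of 5 members are shown because these genes carried the line differences described further on, H2BC12, H2AC6, H1-2 and H2BC5 with CAOV-3 and OVCAR-3 above the other lines and H2BC21 with OVCAR-3 alone above them. Each is the 200 bases before the RefSeq gene start in build GRCh38.p14, read 5′ to 3′ on the gene's strand, with the TATAAA core of the TATA box, the CCAAT box and the octamer ATTTGCAT, on either strand, in capitals. They lie at chr6:27146859-27147058 on the minus strand for H2BC12, chr6:26123972-26124171 on the plus strand for H2AC6, chr6:26056471-26056670 on the minus strand for H1-2, chr6:26157921-26158120 on the plus strand for H2BC5 and chr1:149886683-149886882 on the minus strand for H2BC21.
H2BC12: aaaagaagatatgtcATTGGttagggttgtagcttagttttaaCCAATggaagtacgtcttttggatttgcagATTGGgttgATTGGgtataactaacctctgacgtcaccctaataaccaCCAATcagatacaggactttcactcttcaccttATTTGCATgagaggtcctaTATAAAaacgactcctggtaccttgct
H2AC6: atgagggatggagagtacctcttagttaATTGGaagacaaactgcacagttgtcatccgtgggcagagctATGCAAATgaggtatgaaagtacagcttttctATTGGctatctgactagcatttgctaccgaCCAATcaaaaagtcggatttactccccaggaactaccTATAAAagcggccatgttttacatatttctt
H1-2: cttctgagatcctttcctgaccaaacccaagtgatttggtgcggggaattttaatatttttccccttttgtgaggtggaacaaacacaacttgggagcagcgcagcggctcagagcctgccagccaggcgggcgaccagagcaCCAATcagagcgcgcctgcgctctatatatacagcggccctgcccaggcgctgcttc
H2BC5: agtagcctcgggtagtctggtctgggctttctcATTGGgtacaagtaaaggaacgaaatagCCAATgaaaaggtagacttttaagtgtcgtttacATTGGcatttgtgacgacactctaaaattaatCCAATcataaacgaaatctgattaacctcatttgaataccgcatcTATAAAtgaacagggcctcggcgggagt
H2BC21: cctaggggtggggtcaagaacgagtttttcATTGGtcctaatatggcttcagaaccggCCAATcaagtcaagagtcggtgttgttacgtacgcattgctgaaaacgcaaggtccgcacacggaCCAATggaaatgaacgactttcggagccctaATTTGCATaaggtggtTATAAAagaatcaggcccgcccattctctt

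In these windows TATAAA began 27 bases before the start of H2BC12, 31 before H2AC6, 28 before H2BC5 and 30 before H2BC21. TATAAA did not occur in the H1-2 window, which holds tatatata close to the start, letters that the exact search did not cover. The CCAAT box, the letters bound by the factor NF-Y, matched 5 times in H2BC12, 3 times in H2AC6, 4 times in H2BC5, 3 times in H2BC21 and 1 time in H1-2. The octamer ATTTGCAT, bound by POU-domain factors such as OCT1, was in the windows of H2BC12, H2AC6 and H2BC21. Of the 60 named genes, 54 had a promoter in the RefSeq table, 47 of them on chromosome 6, 6 on chromosome 1 and 1 on chromosome 12. Among these 54, TATAAA was found in 30, against 8.92% of all 27305 promoters, and CCAAT in 44, against 28.9%. CCAAT was in every H1, H2A, H2B and H3 window of these genes but in only 3 of 13 H4 windows. ATTTGCAT was found in 12 of 15 H2B and 5 of 13 H2A promoters and in 0 of 13 H4 promoters, against 1.32% of all. The core of the interferon-stimulated response element, searched as GAAA, any 2 bases and GAAA again, was in 2 of the 54 windows and in 2.44% of all, and in 0 of the 5 shown. Matches of different motifs were allowed to overlap, and a match is no evidence of binding. H2AC6 and H2BC4 are neighbours read in opposite directions, 1 of 9 such pairs whose promoter windows in the RefSeq table overlap.

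Most members were dim. On all 8 arrays, 34 of the 61 probe sets lay below the array's median probe set, as did 40.1% of all probe sets, and RMA compresses differences at such levels. Member levels ran from 3.58 to 11.82. Among the genes of H1, the linker histone that binds DNA between nucleosomes, only H1-2 exceeded the array's median, and only in CAOV-3 and OVCAR-3. H1-1, H1-3, H1-4 and H1-5 lay between 3.77 and 5.5 on every array. Of the 9 H3 probe sets, H3C8 ran from 6.67 to 6.99 and the other 8 from 3.72 to 6.29. The members with the highest signal were the H4 probe set 205967_at, which names 14 H4 genes, H2BC12 and a probe set of the twin genes H2AC18 and H2AC19. Signal also depends on the probes, so genes are not ranked by it.

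**Figure D1:**
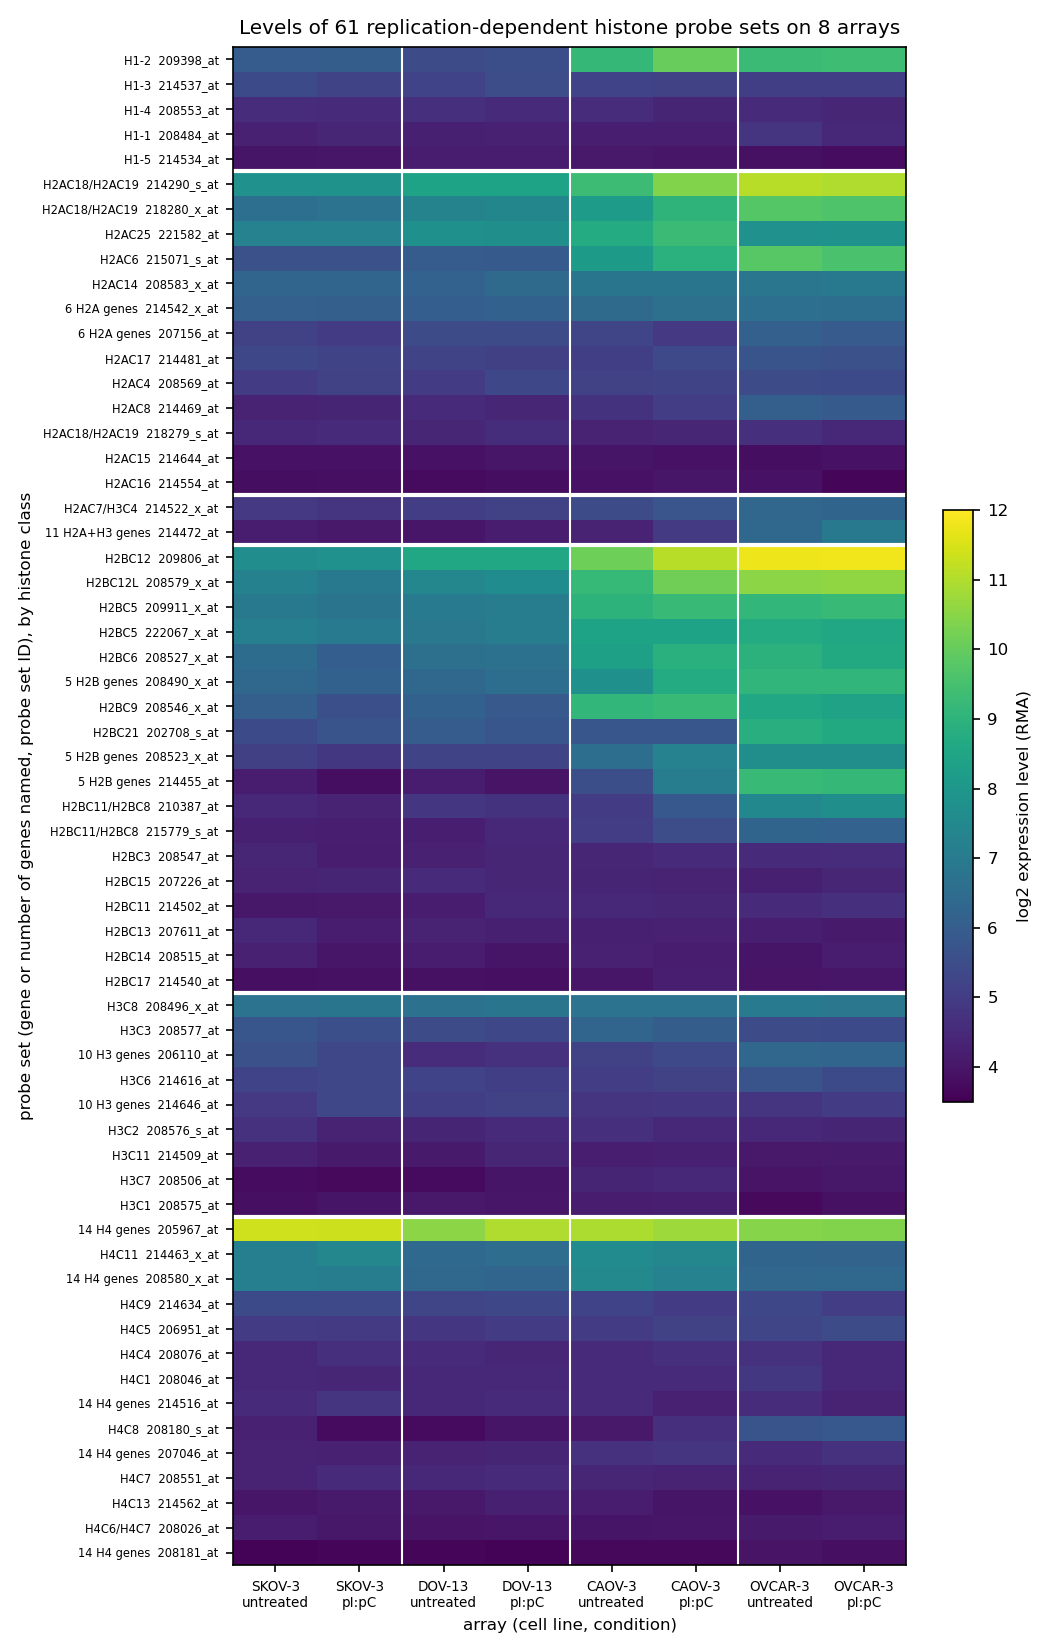
Log2 expression level of the 61 histone probe sets (rows, grouped by class and ordered by mean level) on the 8 arrays (columns, untreated and pI:pC of each line). A block of H1-2, H2A and H2B probe sets is lighter in CAOV-3 and OVCAR-3, as in H2BC12, which ran from 7.65 in untreated SKOV-3 to 11.82 in treated OVCAR-3.

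Lines differed in many members. limma's F test over the 4 lines, with the treatment as a term, found a difference in 38 of 61 members (62.3%) at an adjusted p under 0.05, against 65.5% of all probe sets, so the share of members is close to the background. A part of the members shared a direction. In 20 of 61 (32.8%), CAOV-3 and OVCAR-3 were each higher than SKOV-3 and than DOV-13 in all 4 pairwise tests, against 5.28% of all probe sets. The opposite order was found in 0 of 61, against 7.81%. This order was noticed in the values and then counted, and many of the 20 share targets. They were 10 of 18 H2B, 6 of 13 H2A, both H2A and H3, 1 of 5 H1 and 1 of 14 H4 probe sets, with 0 of 9 for H3. Of the 41 probe sets that name 1 gene, 10 showed it. They were those of H1-2, H2AC6, H2AC8, H2AC14, H2BC5 (2 probe sets), H2BC6, H2BC9, H2BC12 and H2BC12L. Those of H2AC14, H2BC5, H2BC6, H2BC9 and H2BC12L end in _x_at and may match other sequences. That of H2AC6 ends in _s_at, which marks probes shared by related transcripts.

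By pairs of lines, 31 members were higher in OVCAR-3 than in SKOV-3 (50.8%, against 21.3% of all probe sets) and 3 lower (4.92%, against 25.8%). CAOV-3 was above SKOV-3 in 26 members (42.6%, against 22%) and below it in 1 (1.64%, against 24.8%). Against DOV-13, OVCAR-3 was higher in 30 and lower in 2, and CAOV-3 higher in 26 and lower in 1, where 20.4% and 25.6%, and 21.4% and 25%, of all probe sets were called. Between SKOV-3 and DOV-13 few members differed, with 4 higher in DOV-13 (6.56%, against 17.4%) and 5 lower (8.2%, against 17.5%). OVCAR-3 was higher than CAOV-3 in 21 (34.4%, against 23.2%) and lower in 8 (13.1%, against 24.2%).

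H2B genes, which encode the partner of H2A in the nucleosome, included the member with the widest range and 10 of the 20. H2BC12 stood at 7.65 untreated and 7.79 treated in SKOV-3, 8.60 and 8.57 in DOV-13, 10.11 and 11.09 in CAOV-3, and 11.80 and 11.82 in OVCAR-3. No array of CAOV-3 or OVCAR-3 overlapped those of the other lines, and the difference between OVCAR-3 and SKOV-3 was 4.09 ± 0.23 (SE, adjusted p = 4.36e-06). All 6 pairs of lines differed for H2BC12, with the smallest step from SKOV-3 to DOV-13 at 0.86 ± 0.23 (adjusted p = 0.0198). H2BC12L read 7.23 and 6.94 in SKOV-3, 7.44 and 7.63 in DOV-13, 9.21 and 10.16 in CAOV-3, and 10.53 and 10.59 in OVCAR-3, untreated and treated. Its order of lines was that of H2BC12, but SKOV-3 and DOV-13 were not told apart (adjusted p = 0.223).

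The probe set 214455_at, which names H2BC4, H2BC6, H2BC7, H2BC8 and H2BC10, had the largest range of line means of all members, 5.21. Its levels were 4.18 and 3.83 in SKOV-3 and 4.17 and 3.96 in DOV-13, untreated and treated, near the bottom of the arrays. They were 5.55 and 7.07 in CAOV-3 and 9.28 and 9.15 in OVCAR-3. OVCAR-3 was above CAOV-3 by 2.90 ± 0.40 (SE, adjusted p = 0.000562), while SKOV-3 and DOV-13 were not told apart (adjusted p = 0.94). The probe sets 208490_x_at and 208523_x_at, which name the same 5 genes, had levels up to 9.10 and 7.70 in OVCAR-3, the highest line on each. H2BC6 alone, on 208527_x_at, did not separate OVCAR-3 from CAOV-3 (0.21 ± 0.22, adjusted p = 0.477).

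H2BC5 did not separate CAOV-3 from OVCAR-3, and H2BC9 was highest in CAOV-3. H2BC5 by 209911_x_at read 6.94 and 6.78 in SKOV-3, 7.04 and 7.10 in DOV-13, 9.0 and 9.26 in CAOV-3 and 9.12 and 9.22 in OVCAR-3. OVCAR-3 minus CAOV-3 was 0.03 ± 0.11 (SE, adjusted p = 0.832), and the second H2BC5 probe set, 222067_x_at, gave 0.24 ± 0.11 (adjusted p = 0.105). H2BC9 read 6.08 and 5.59 in SKOV-3, 6.12 and 5.88 in DOV-13, 9.12 and 9.24 in CAOV-3 and 8.58 and 8.41 in OVCAR-3. For H2BC9, OVCAR-3 minus CAOV-3 was -0.69 ± 0.14 (adjusted p = 0.00432), the reverse of H2BC12.

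H2BC21 and the H2BC11/H2BC8 probe set 210387_at were high in OVCAR-3. H2BC21, an H2B gene of the smaller cluster, read 5.40 and 5.69 in SKOV-3, 5.97 and 5.76 in DOV-13, 5.76 and 5.78 in CAOV-3, and 8.86 and 8.66 in OVCAR-3. OVCAR-3 was above CAOV-3 by 2.99 ± 0.13 (SE, adjusted p = 1.49e-06), and no pair among the other lines differed (adjusted p = 0.108 to 0.601). The H2BC11/H2BC8 probe set read 4.46 and 4.34 in SKOV-3, 4.83 and 4.74 in DOV-13, 4.97 and 5.83 in CAOV-3 and 7.47 and 7.72 in OVCAR-3. CAOV-3 was not told apart from DOV-13 on it (0.61 ± 0.22, adjusted p = 0.0525). On 215779_s_at, which names the same genes, CAOV-3 was above DOV-13 by 0.96 ± 0.14 (SE, adjusted p = 0.000709). OVCAR-3 was highest there too, and this probe set is among those with CAOV-3 and OVCAR-3 each above both other lines.

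H1-2 separated the lines in the same direction. It read 5.97 and 5.99 in SKOV-3, 5.45 and 5.56 in DOV-13, 9.17 and 10.03 in CAOV-3, and 9.29 and 9.36 in OVCAR-3, untreated and treated. CAOV-3 minus DOV-13 was 4.10 ± 0.19 (SE, adjusted p = 2.25e-06). Neither CAOV-3 and OVCAR-3 (adjusted p = 0.29) nor SKOV-3 and DOV-13 (adjusted p = 0.104) were told apart. The other H1 genes showed no such split: of H1-1, H1-3, H1-4 and H1-5, only H1-5 differed among lines (F test, adjusted p = 0.0349), at levels no higher than 4.19.

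Among H2A genes, H2AC6, the gene that faces H2BC4, stood at 5.60 and 5.60 in SKOV-3, 5.97 and 5.92 in DOV-13, 8.12 and 8.93 in CAOV-3, and 9.78 and 9.58 in OVCAR-3. OVCAR-3 minus SKOV-3 was 4.08 ± 0.22 (SE, adjusted p = 3.81e-06). The H2AC18/H2AC19 probe set 214290_s_at read 7.81 and 7.85 in SKOV-3, 8.45 and 8.44 in DOV-13, 9.34 and 10.40 in CAOV-3 and 11.10 and 10.98 in OVCAR-3. A second probe set of this pair of genes, 218280_x_at, had the same order, from 6.59 in untreated SKOV-3 to 9.76 in untreated OVCAR-3, but the remaining one, 218279_s_at, was dim (4.36 to 4.66) and did not differ among lines (F test, adjusted p = 0.498). H2AC25, which lies outside the large cluster, peaked in CAOV-3 (OVCAR-3 minus CAOV-3 -1.19 ± 0.15, SE, adjusted p = 0.000342). It read 7.26 and 7.27 in SKOV-3, 7.78 and 7.74 in DOV-13, 8.73 and 9.29 in CAOV-3 and 7.80 and 7.85 in OVCAR-3, and OVCAR-3 and DOV-13 were not told apart (adjusted p = 0.759).

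**Figure D2:**
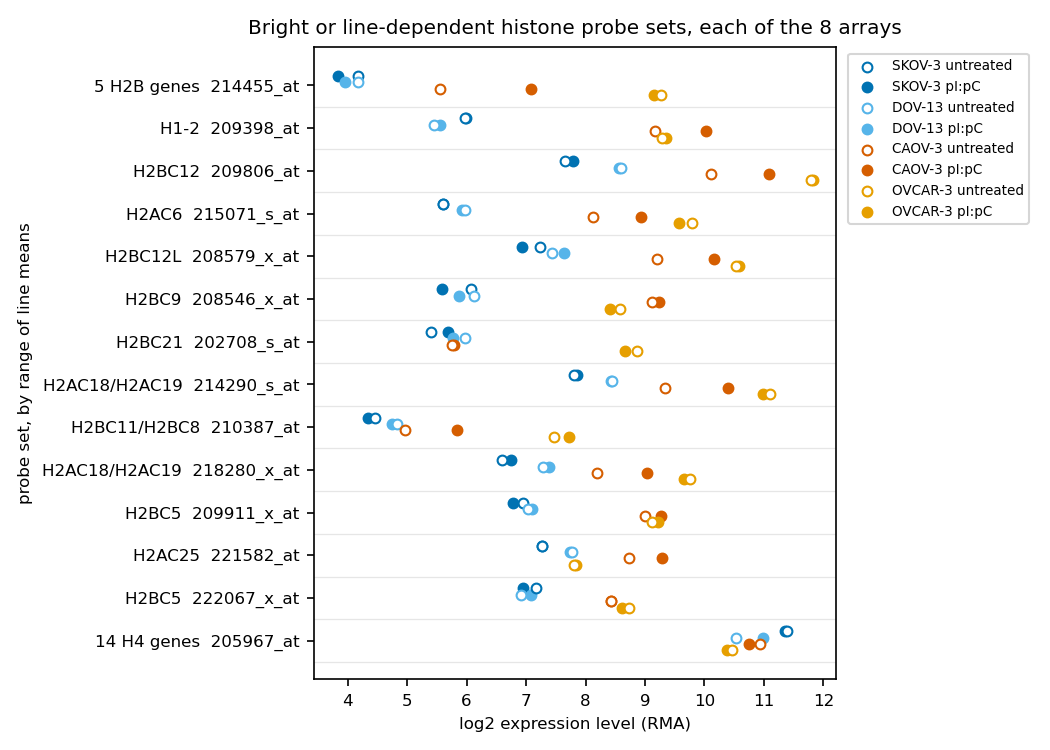
Log2 level on each array for the 14 histone probe sets with the highest mean level or the largest range of line means, ordered by that range, with open points for untreated and filled points for pI:pC arrays and a colour per line. In H2BC12, H1-2 and H2AC6 the CAOV-3 and OVCAR-3 points lie above all SKOV-3 and DOV-13 points, in H2BC21 those of OVCAR-3 alone do, and the H4 probe set stays between 10.38 and 11.38.

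None of the 9 probe sets that name H3 genes alone followed that split, and of the 14 H4 probe sets only the dim 207046_at did. The mixed probe sets 214472_at and 214522_x_at, which name H3 genes with H2A genes, did follow it. The H4 probe set 205967_at read 11.38 and 11.35 in SKOV-3, 10.53 and 10.98 in DOV-13, 10.94 and 10.75 in CAOV-3 and 10.46 and 10.38 in OVCAR-3. SKOV-3 was the highest line, and OVCAR-3 minus SKOV-3 was -0.95 ± 0.15 (SE, adjusted p = 0.00118). H4C11 and the 14-gene probe set 208580_x_at had yet another order. H4C11 read 7.17 and 7.43 in SKOV-3 and 7.59 and 7.43 in CAOV-3, against 6.42 and 6.53 in DOV-13 and 6.24 and 6.20 in OVCAR-3. SKOV-3 and CAOV-3 were not told apart on H4C11 (adjusted p = 0.18), nor were DOV-13 and OVCAR-3 (adjusted p = 0.106). The other probe sets that name the same 14 H4 genes, 207046_at, 208181_at and 214516_at, lay between 3.58 and 4.81. H3C3 was highest in CAOV-3, at 6.26 untreated and 6.0 treated, and between 5.34 and 5.77 elsewhere.

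Other values moved with the lines. The log2 difference between the 3′ and 5′ ACTB control probe sets, a sign of how complete the labelled RNA was, was 0.63 and 0.67 in SKOV-3, 0.58 and 0.64 in DOV-13, 0.80 and 0.94 in CAOV-3, and 1.32 and 1.26 in OVCAR-3, untreated and treated. That of GAPDH lay between 0.07 and 0.30 with SKOV-3 highest. The median level of 10 epithelial and ovarian carcinoma markers was 8.0 and 7.99 in SKOV-3, 7.08 and 7.29 in DOV-13, 10.22 and 9.95 in CAOV-3, and 10.52 and 10.5 in OVCAR-3, and all 10 differed among lines. Of 5 measured leukocyte markers 4 lay below the median on all arrays, as did 4 of 6 fibroblast and endothelial markers. The median of 26 S phase genes stayed between 9.50 and 9.68 on the 8 arrays, while 25 of the 26 genes differed among lines in the F test. This count and the epithelial one stand against 65.5% of all probe sets and 90.5% of those at or above the median level. The part of RNA completeness and of epithelial character, and of the S phase genes, in the histone differences was not tested.

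No histone probe set passed for the treatment. With each treated array set against the untreated array of its line (limma, lines as blocks), 0 of 61 members were higher and 0 lower at an adjusted p under 0.05, against 0% of all probe sets. No member had an adjusted p below 0.996. Unadjusted, 2 members had p under 0.05, as did 3.85% of all probe sets. The mean change over lines was positive in 41 members (67.2%, against 53.3% of all probe sets) and negative in 20, with a median of 0.04 against 0.01 for all probe sets, and ran from -0.20 (H2BC9) to 0.29. Without CAOV-3 the median was -0.01. Higher in all 4 lines were 2 members, against 6.74% of all probe sets, and lower in all were 2, against 4.77%.

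The members with 1 sign in all lines had small changes at mostly low levels. H1-2 had 0.26 ± 0.40 (SD, n = 4 lines), which was 0.07 without CAOV-3, the 10-gene H3 probe set 214646_at 0.19 ± 0.17, H3C3 -0.14 ± 0.11 and H1-4 -0.13 ± 0.06. The H3 probe set was 0.40 higher in SKOV-3, 0.09 in DOV-13, 0.03 in CAOV-3 and 0.23 in OVCAR-3, at levels between 4.77 and 5.31. It was not called after adjustment, like the other members named here (adjusted p = 0.996 or above).

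CAOV-3 held the largest differences. With 1 array per condition there is no replicate check within a line. A member was therefore counted by size alone, with a log2 difference of 1 or more and at least 1 of its values at or above the median probe set. In CAOV-3, 2 members were counted as higher (3.28%), against 0.72% of all probe sets, and 0 as lower, against 0.135%. They were the 5-gene H2B probe set 214455_at, higher by 1.53, and the H2AC18/H2AC19 probe set 214290_s_at, higher by 1.06. In the other lines 0 members were counted in either direction. Of all probe sets, 0.0045% were counted as higher and 0.0135% as lower in SKOV-3, 0.018% and 0.009% in DOV-13, and 0.144% and 0.009% in OVCAR-3.

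Just under that size lay a group of H2A, H2B and H1 members. In CAOV-3, H2BC12 was higher by 0.98, the 5-gene H2B probe set 208490_x_at by 0.96, H2BC12L by 0.95, H1-2 by 0.86, the second H2AC18/H2AC19 probe set by 0.85, H2AC6 by 0.81 and the 5-gene H2B probe set 208523_x_at by 0.68. At a difference of 0.58, these and the 2 above made 9 of 61 members (14.8%), against 1.72% of all probe sets, and 0 were lower, against 0.981%. The other lines again had 0 in either direction, where 0.0495% of all probe sets were higher and 0.329% lower in SKOV-3, 0.18% and 0.117% in DOV-13, and 0.342% and 0.099% in OVCAR-3. Below the level asked for, the H2BC11/H2BC8 probe set 210387_at was higher in CAOV-3 by 0.86 and the 11-gene H2A and H3 probe set 214472_at by 0.60. The 9 include 4 that name 1 gene. Some of the 9, such as H1-2 and H2AC6, lay below the median probe set in SKOV-3 and DOV-13, where RMA compresses differences. There they could not have been counted. All 9 are among the 20 members that were higher in CAOV-3 and OVCAR-3 than in both other lines. They were picked for their CAOV-3 difference, and as no member reached 0.58 in another line, their smaller values there follow from the choice: -0.35 to 0.16 in SKOV-3, -0.20 to 0.21 in DOV-13 and -0.21 to 0.07 in OVCAR-3. Over the 4 lines H2BC12 had a mean change of 0.27 ± 0.48 (SD), which was 0.04 without CAOV-3, and the 5-gene H2B probe set 214455_at had 0.21 ± 0.88, which was -0.23 without it. Some bright H2B members had smaller differences in CAOV-3. H2BC5 differed by 0.26 and -0.005 on its probe sets and H2BC9 by 0.13. The H4 probe set 205967_at differed by -0.19 there.

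**Figure D3:**
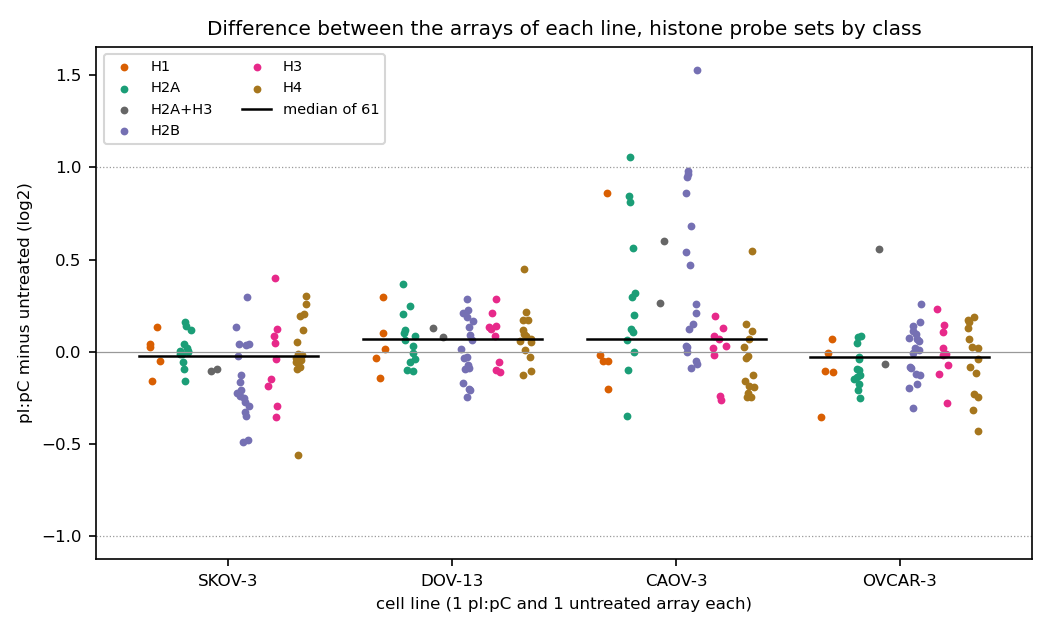
Log2 difference between the pI:pC and the untreated array of each line for the 61 histone probe sets, coloured by class, with the median as a black bar and dotted lines at 1 and -1. In CAOV-3 a set of H1, H2A and H2B points lies between 0.68 and 1.53, apart from most others, and in SKOV-3, DOV-13 and OVCAR-3 no point reaches 0.58.

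Interferon-stimulated genes, which report the cell's answer to double-stranded RNA, were higher on the treated arrays of OVCAR-3 and CAOV-3. Over 11 measured genes of this kind, the median difference between arrays was 2.47 for OVCAR-3, 2.12 for CAOV-3, 0.13 for SKOV-3 and 0.06 for DOV-13. All 11 were higher in OVCAR-3 and CAOV-3, 9 in SKOV-3, where IFI44 was higher by 1.48, and 6 in DOV-13. Their untreated median level was 8.33 in CAOV-3, against 5.40 in SKOV-3, 6.02 in DOV-13 and 5.57 in OVCAR-3. IFI44L had a mean change of 2.07 ± 2.69 (SD, n = 4 lines), IFIT1 1.88 ± 1.88 and IFI44 1.74 ± 1.22, and 0 of the 11 passed over all probe sets. IFI44L was higher by 5.52 in OVCAR-3. The median difference of the 61 histone probe sets was -0.03 for OVCAR-3, 0.07 for CAOV-3, -0.02 for SKOV-3 and 0.07 for DOV-13. Any relation of histone differences to the interferon response was not tested. The ACTB 3′ minus 5′ difference, 0.94 on the treated CAOV-3 array and 0.80 on the untreated one, differed less within each of the other lines, and its part in the CAOV-3 histone differences was not tested.

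The genes that make and process histone mRNA had small mean changes, and none passed. Of 24 measured genes of histone transcription and 3′ end formation, 18 had a positive mean change, as did 53.3% of all probe sets. In either direction 0 passed, against 0% of all probe sets. SLBP, which binds the stem-loop, stood at 9.97 and 9.95 in SKOV-3, 10.70 and 10.77 in DOV-13, 11.21 and 11.46 in CAOV-3 and 10.29 and 10.37 in OVCAR-3, untreated and treated. Its mean change was 0.09 ± 0.11 (SD, n = 4 lines), and 0.04 without CAOV-3. NPAT, the cyclin E-CDK2 substrate that activates histone transcription, had 0.01 ± 0.09, and -0.03 without CAOV-3. The largest mean changes were those of CSTF2, which encodes a polyadenylation factor, at 0.18 ± 0.21, and of the cyclin E genes CCNE1 at 0.16 ± 0.33 and CCNE2 at 0.15 ± 0.33. In CAOV-3, CCNE1 was higher by 0.64 and CCNE2 by 0.47, and without CAOV-3 the mean changes were 0.01 for CCNE1 and 0.05 for CCNE2.

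Histone variant genes outside the rule for members were split, with 5 of 10 higher and 5 lower in mean change. Of those named next, H3-4 (4.45 to 4.83) and H2AJ (4.14 to 4.87) lay below the median probe set on every array. H3-4 had 0.14 ± 0.04 (SD, n = 4 lines), H2AJ 0.13 ± 0.29 (0.05 without CAOV-3), and CENPA, the H3 variant of centromeres, -0.13 ± 0.42, with -0.74 in CAOV-3 and a mean of 0.07 without it. Of 24 histone chaperone and chromatin assembly genes, 17 had a positive mean change, as did 53.3% of all probe sets. The largest were UBN1 at 0.17 ± 0.14, IPO4 at 0.12 ± 0.13 and CHAF1A, a subunit of the CAF-1 assembly factor, at 0.12 ± 0.19. Without CAOV-3 IPO4 had 0.07 and CHAF1A 0.05. Of 26 S phase genes, 24 had a mean change above 0, as did 53.3% of all probe sets, and in CAOV-3 22 were higher on the treated array, as were 46.8% of all. In CAOV-3 the median difference was 0.20. FEN1 had 0.16 ± 0.21, CDT1 0.14 ± 0.07 and MCM5, a subunit of the replicative helicase, 0.13 ± 0.13. Without CAOV-3 the S phase median was 0.04, with FEN1 and MCM5 at 0.07 each. No gene of these lists passed, with a smallest adjusted p of 0.996 in each.

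**Figure D4:**
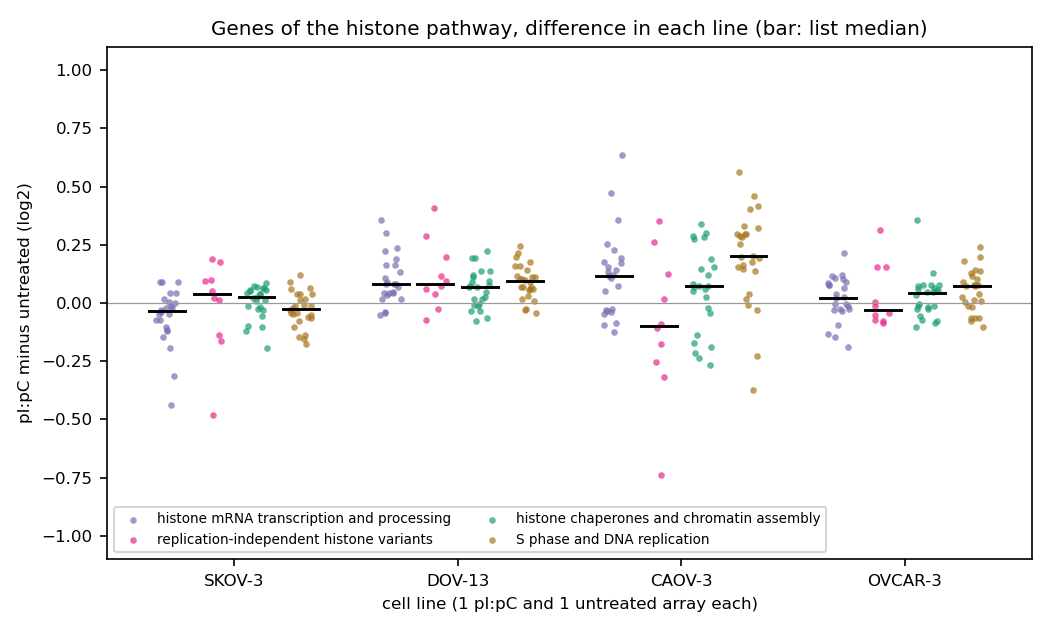
Log2 difference between the pI:pC and the untreated array of each line for genes of the histone pathway, with the list median as a black bar. The lists are histone mRNA processing (24), histone variants outside the rule for members (10), chaperones and assembly (24) and S phase (26). Medians stay between -0.10 and 0.20, and the largest single difference is that of CENPA in CAOV-3 at -0.74.

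Growth arrest genes and cell markers had median mean changes near 0. Of 6 measured p53 and CDK inhibitor genes, 3 had a positive mean change, with CDKN1A (p21) at -0.12 ± 0.12 (SD, n = 4 lines), CDKN2A at 0.05 ± 0.11 and MDM2 at -0.05 ± 0.07. Of the epithelial markers 5 of 10 had a positive mean change, led by MUC16 at 0.24 ± 0.28, EPCAM at 0.16 ± 0.27 and CLDN4 at 0.15 ± 0.30, and their median difference in CAOV-3 was -0.15. Without CAOV-3 the mean change was 0.12 for MUC16, 0.22 for EPCAM and 0.30 for CLDN4. The leukocyte list had CD14 at -0.33 ± 0.40, ITGAM at 0.06 ± 0.12 and PTPRC at 0.05 ± 0.17. Without CAOV-3 the mean change was -0.14 for CD14, 0.10 for ITGAM and 0.09 for PTPRC. The fibroblast and endothelial list had DCN at -0.13 ± 0.13, PECAM1 at 0.08 ± 0.16 and CDH5 at 0.06 ± 0.40, and without CAOV-3 PECAM1 had 0.13 and CDH5 0.14. None of these passed.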

How the data were processed

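RNA was measured on 8 arrays, and samples were grouped by treatment and cell line from their labels. The authors deposited log2 expression levels per probe set, and the submitters' processing notes name RMA, with no version. RMA corrects background, brings arrays to a common distribution and summarises probes. It compresses differences at low levels.

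Gene symbols came from GEO's annotation of the array platform. Of 22277 probe sets, 62 array controls were left out and 22215 were tested. limma 3.58.1 in R 4.3.3 (lmFit, then eBayes) was fitted with cell line and treatment as terms, two-sided, Benjamini-Hochberg adjusted over all 22215 at 0.05. It has 3 residual and 4.59 prior degrees of freedom. Treatment was tested with the line as a block. The F test and the 6 pairwise contrasts of lines used the same terms, each line standing on its treated and untreated array. Arrays are paired by cell line, and deviations from the group means correlated within each pair (0.936 to 0.965). The fit was tested on simulated data.

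Mean changes are averages over 4 lines of the treated value less the untreated one, with their SD. Pathway genes were read through the probe set of highest mean that names 1 gene. Named members were the 10 with the smallest treatment p among those of 1 sign in all lines (4 exist), those counted within a line, the 8 brightest, the 10 with the largest range of line means, and 3 genes per list with the largest mean change. SLBP, NPAT and any further member named had no such rule and were picked with values in view. The members and lists were chosen with earlier results of these data known. Promoters come from RefSeq, build GRCh38.p14.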

Additional observations from a re-analysis of the deposited data

Results flagged for a closer look

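Of 88 sets of 4 values, 1 per line, 9 had a highest or lowest value whose gap to the nearest other, as a share of the range, was above Dixon's critical value, which chance gives in about 1 of 20 sets not chosen on their values. Several of these probe sets were named for their CAOV-3 difference or their line range, so that rate does not apply to them, and each value that stood apart rests on 1 array or 1 array pair. In 5 of them the treated minus untreated difference of a histone probe set in CAOV-3 stood apart: H1-2 at 0.859 (0.028 to 0.103 in the other lines), H2AC18/H2AC19 on 214290_s_at at 1.056 (-0.12 to 0.04), H2AC25 at 0.561 (-0.04 to 0.05), H2BC12 at 0.979 (-0.03 to 0.13) and the 5-gene H2B probe set 214455_at at 1.528 (-0.35 to -0.13). In another 3 the OVCAR-3 level stood apart. For H2BC21 it was 8.863 untreated, against 5.40 to 5.97 in the other lines, and 8.663 treated, against 5.69 to 5.78. For H2BC11/H2BC8 on 210387_at it was 7.465 untreated, against 4.46 to 4.97. The median difference of the epithelial markers was -0.149 in CAOV-3, against 0.02 to 0.04 elsewhere.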

How the results depend on the processing

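The count of members that passed for the treatment was 0 under every alternative run: without the cell line as a replicate block, with the level filter, with 1 probe set per gene, after quantile normalization or centring, with trend and robust, at a threshold of 0.10, for probe sets that name 1 gene, and without each line. Of all probe sets 0 passed in each of these runs as well, so the count is not particular to histone genes. The block changed no call. The 38 members that differed among lines became 18 of 19 with the level filter (94.7%, against 91.8% of all probe sets tested). Among probe sets that name 1 gene they became 22 of 41 (53.7%, against 65.5%). Both fell by construction, since fewer members were tested. The 20 members higher in CAOV-3 and OVCAR-3 became 13 (68.4%, against 8.3%) and 10 (24.4%, against 5.28%) in the same settings. Leaving out a line gave 28 to 37 and 22 to 29. The former were 45.9% to 60.7% of members, against 53.8% to 61.9% of all probe sets. The latter had fewer pairwise tests to pass, and the share of all probe sets rose from 5.28% to between 9.71% and 14.6%, that of members from 32.8% to between 36.1% and 47.5%, so the excess over all probe sets was smaller as a ratio. Lowering the difference to 0.58 raised the CAOV-3 count from 2 to 9. The median change of members ran from -0.015 to 0.059 when a line was left out, negative without CAOV-3. Of 158 recomputed mean changes of named members, 9 turned sign, all on leaving out a line. Without CAOV-3 these were H2AC18/H2AC19 on 214290_s_at (range -0.031 to 0.363), H2AC6 (-0.089 to 0.251), H2BC12L (-0.015 to 0.400), H2BC5 on 209911_x_at (-0.00104 to 0.139) and the 5-gene H2B probe set 214455_at (-0.226 to 0.3995). The others were H2BC5 on 222067_x_at without SKOV-3 (-0.110 to 0.015), the H4 probe set 205967_at without DOV-13 (-0.102 to 0.112) and H2BC21 without DOV-13 or OVCAR-3 (-0.128 to 0.040). The cause was not tested. Dim probe sets limit what can be seen: 34 of 61 members lay below the median on all arrays, and the background signal was not analysed here.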
